A study of Rattus norvegicus with 9 samples.

Results

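Annexins and S100 proteins are small families of calcium-binding proteins, and 10 of their genes were followed here in rat liver. The members were 5 annexins (Anxa1, Anxa2, Anxa3, Anxa5 and Anxa7) and 5 S100 genes (S100a4, S100a6, S100a8, S100a9 and S100a10). They were found by gene symbol among the 14377 genes that the array table names singly, and 13 of its 31042 probe sets read them. A probe set is a group of short oligonucleotides for a transcript, and where a gene had several, the brightest on average stands for it here. Total RNA from frozen liver was hybridised to Affymetrix rat expression arrays, with 1 array for each of 9 rats. The labels put 3 rats each in the groups vehicle, CCl4 and CCl4+Rot. The animals were male Sprague-Dawley rats, whose age is not given in the sources used here. CCl4 (carbon tetrachloride), a hepatotoxin used to induce liver fibrosis, was mixed with olive oil and injected repeatedly into the peritoneum. CCl4+Rot rats received the same CCl4 course and in addition rottlerin, an activator of large-conductance calcium-activated potassium (BK) channels, starting some time after CCl4. Rottlerin is also known to act on several kinases. No group received rottlerin without CCl4, so the comparisons with rottlerin were made in CCl4-treated liver.

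Annexins bind negatively charged phospholipids when calcium rises. They link membranes to the actin cytoskeleton and take part in vesicle traffic and membrane repair. S100 proteins are small EF-hand proteins which change shape on binding calcium and then dock on target proteins. The families meet in the complex of Anxa2 with S100a10, which sits under the plasma membrane and binds plasminogen and its activator. S100a8 and S100a9 pair as calprotectin, an abundant protein of neutrophils and inflammatory monocytes. S100a4, also called fibroblast-specific protein, is known from fibroblasts and macrophages of injured liver. Of these genes, S100a4, S100a6, S100a8 and S100a9 lie in a single run of 11 protein-coding genes on rat chromosome 2 that goes from S100a1 to S100a9 in the RefSeq annotation of GRCr8. S100a10 and Anxa5 are on the same chromosome outside that run. Anxa1 is on chromosome 1, Anxa2 on 8, Anxa3 on 14 and Anxa7 on 15.

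The promoters of the members were read from RefSeq (GRCr8), which gave a start site for 8 of the 10 genes and none for S100a8 and S100a10. The 250 bases before the start are printed for Anxa2 and Anxa7, the annexins with the largest difference between CCl4 and vehicle, and for S100a9, which had the largest difference between CCl4+Rot and CCl4. The sequences are written 5′ to 3′ on the strand of the gene. They lie at chr8:78986002-78986251 (plus strand), chr15:3870790-3871039 (plus strand) and chr2:178490623-178490872 (minus strand). Capitals mark a TATA box (TATAAA), a GC box (GGGCGG), an AP-1 site (TGANTCA) or a CCAAT box (CCAAT), searched on both strands.
Anxa2: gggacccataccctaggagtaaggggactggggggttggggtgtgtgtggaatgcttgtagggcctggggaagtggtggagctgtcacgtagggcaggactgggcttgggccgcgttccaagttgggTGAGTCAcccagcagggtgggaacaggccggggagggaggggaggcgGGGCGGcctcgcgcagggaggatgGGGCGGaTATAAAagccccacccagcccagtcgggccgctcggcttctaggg
Anxa7: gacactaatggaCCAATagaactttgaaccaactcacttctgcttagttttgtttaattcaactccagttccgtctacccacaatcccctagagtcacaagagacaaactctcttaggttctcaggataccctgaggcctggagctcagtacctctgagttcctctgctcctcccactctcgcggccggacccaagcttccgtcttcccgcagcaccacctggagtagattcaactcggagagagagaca
S100a9: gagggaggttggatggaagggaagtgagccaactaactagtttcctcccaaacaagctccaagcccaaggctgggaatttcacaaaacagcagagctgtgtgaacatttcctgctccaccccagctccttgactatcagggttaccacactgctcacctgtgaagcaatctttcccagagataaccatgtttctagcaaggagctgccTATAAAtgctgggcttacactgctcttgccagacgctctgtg
TATAAA was found in 4 of the 8 members (Anxa1, Anxa2, S100a4 and S100a9) and in 12.9% of all 33469 promoters of the table. Its first letter lay 42 bases before the start in S100a9, 45 in Anxa2, 46 in Anxa1 and 31 in S100a4. GGGCGG was found in Anxa2, Anxa3, Anxa5 and S100a6, and in 30.5% of all promoters. Anxa2 held 2 copies of it and was the sole member with TGANTCA, which 6.34% of promoters hold. No copy of a motif in Anxa2 overlapped another. CCAAT was found in Anxa7 among the members and in 34.0% of all promoters. A STAT site (TTCNNNGAA) and a SMAD-binding palindrome (GTCTAGAC) were searched as well, and these letters were in none of the 8 windows. They were in 7.67% and 0.173% of all promoters. These are matches of letters in short windows and say nothing of binding.

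The arrays differed in ways that touch these genes. CCl4 replicate 3 had 12714 probe sets called present, compared with 15550 to 16849 on the other 8 arrays, and a median log2 signal of 7.81 over all probe sets, compared with 6.79 to 7.01. Over the 11231 probe sets present on all 9 arrays its median was 9.53, within the range of 9.51 to 9.58 on all arrays. This array was the highest of the CCl4 arrays for S100a4 alone among the members. Vehicle replicate 3 was the highest of the vehicle arrays for 8 of the 10 members, and for 33.0% of all probe sets. Where leaving out either array moved the log2 difference of a gene printed below by more than 1.5 times or turned its sign, the value without it is given beside it. Of 8 hepatocyte markers listed, 7 could be matched, and all of these, including Alb and Ttr, were called present on all 9 arrays.

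Most annexin and S100 genes had a higher mean in CCl4-treated than in vehicle-treated liver. Among the members present on all 9 arrays, Anxa2 (2.56-fold), Anxa7 (2.46-fold) and S100a10 (2.29-fold) differed most, and in these each CCl4 rat lay above each vehicle rat. S100a8, which was present in only 1 vehicle rat, differed by 2.40-fold with overlap. The differences were positive in all 10 genes, from 0.10 in Anxa3 to 1.36 in Anxa2 on the log2 scale. None reached an adjusted p below 0.05 with a change of at least 1.5-fold. The median over the members was 0.90. Over all probe sets tested it was 0.18, and over those present on all 9 arrays -0.01.

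**Figure D1:**
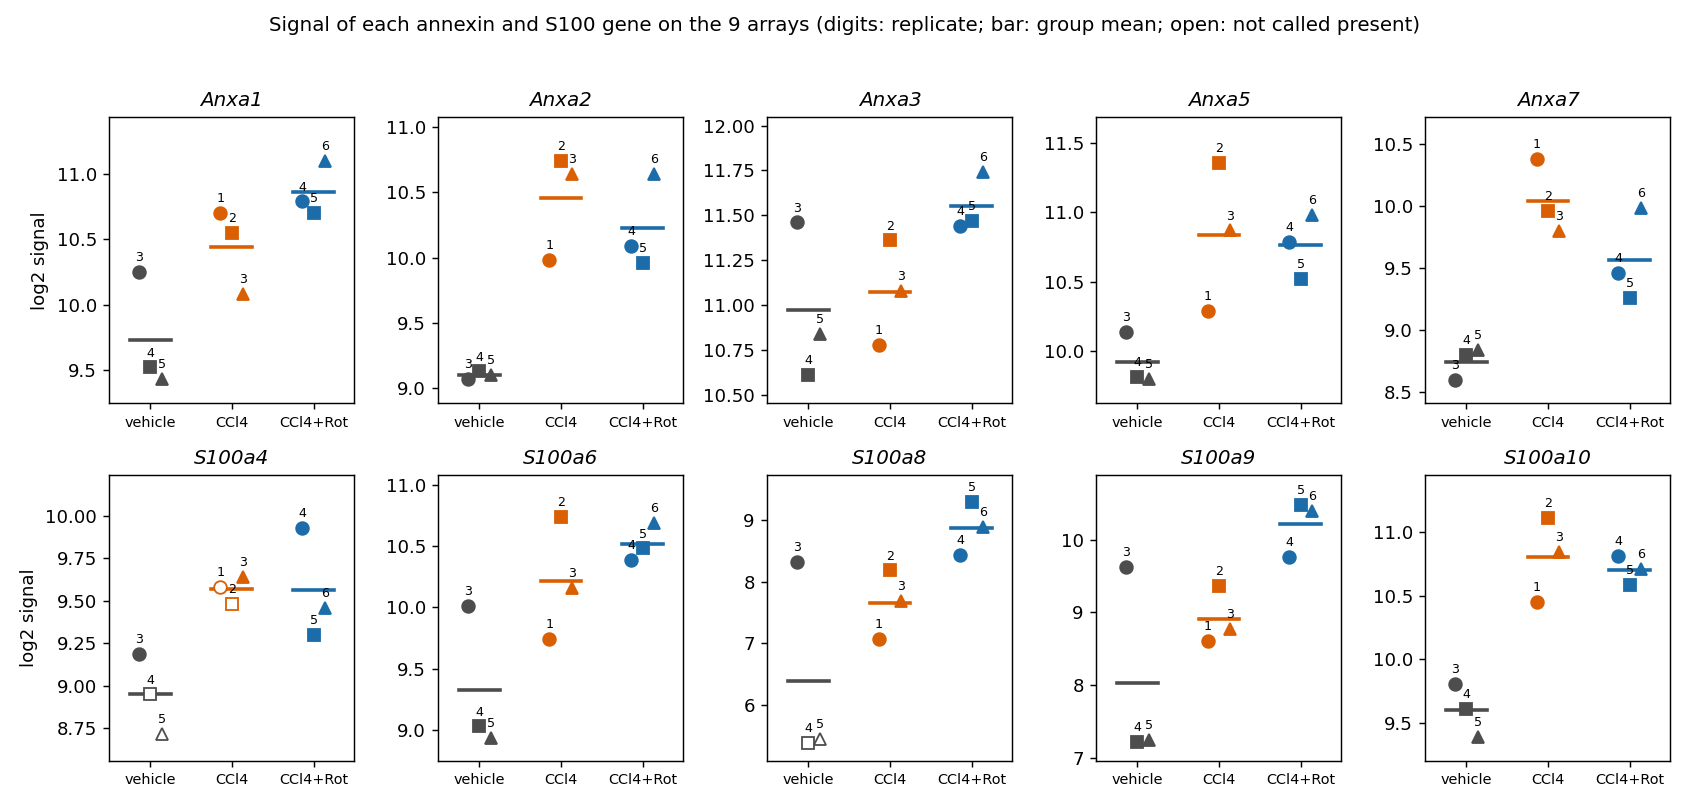
Log2 signal of the 10 genes (vertical axis, a scale of its own in each panel) on the 9 arrays, by group. Each point is a rat with its replicate number, open points were not called present, and the bars are group means of 3 rats. Vehicle replicate 3 stands above the other vehicle rats for S100a8 (8.32 against 5.38 and 5.44) and S100a9 (9.62 against 7.22 and 7.24), and all CCl4 and CCl4+Rot points of Anxa2 and S100a10 lie above all vehicle points.

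Anxa2, which bridges membranes and binds the plasminogen system, had log2 signals of 9.07, 9.13 and 9.10 in the vehicle rats. They were 9.98, 10.74 and 10.64 in the CCl4 rats. The vehicle rats lay within 0.06 of each other and the groups did not overlap. The mean difference was 1.36 (SE 0.266, 95% confidence interval 0.74 to 1.98), with a limma adjusted p of 0.202. Its partner S100a10, which carries no working calcium site and holds Anxa2 at the membrane, had 9.81, 9.61 and 9.39 in vehicle and 10.45, 11.11 and 10.84 in CCl4. Here too each CCl4 rat was above each vehicle rat. The difference was 1.19 (SE 0.216, interval 0.69 to 1.70), with a limma adjusted p of 0.186. Anxa7, an annexin of secretory granule fusion also known as synexin, had 8.60, 8.80 and 8.84 in vehicle and 10.38, 9.96 and 9.80 in CCl4. The groups were separate, by a difference of 1.30 (SE 0.247, interval 0.72 to 1.87) with a limma adjusted p of 0.199. A second Anxa7 probe set had no present call on any array, and no fold is taken from it. RefSeq lists pseudogenes under the names of Anxa2 (8), Anxa7 (4) and S100a10 (1), whose transcripts, if any, these oligonucleotides might also bind.

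Anxa5, which covers exposed phosphatidylserine, had 10.14, 9.81 and 9.80 in vehicle and 10.29, 11.36 and 10.87 in CCl4. CCl4 replicate 1 was close to vehicle replicate 3, and the groups were still separate. The difference was 0.92 (SE 0.290, interval 0.24 to 1.59), with a limma adjusted p of 0.298. Anxa1, a mediator of the resolution of inflammation, had 10.25, 9.52 and 9.43 in vehicle and 10.70, 10.55 and 10.08 in CCl4. Vehicle replicate 3 lay above CCl4 replicate 3, so the groups overlapped. The difference was 0.71 (SE 0.282, interval 0.05 to 1.37), with a limma adjusted p of 0.373, and it was 0.97 without vehicle replicate 3. Anxa3, the annexin with the smallest difference, had 11.46, 10.61 and 10.84 in vehicle and 10.78, 11.36 and 11.08 in CCl4. The ranges of these groups lay almost on each other and the difference was 0.10 (interval -0.52 to 0.73), or 0.35 without vehicle replicate 3. Its other probe sets gave 0.11 and 0.03, or 0.42 and 0.33 without that rat, and -0.12 and -0.05 without CCl4 replicate 3. The sign of the Anxa3 difference turned without vehicle replicate 4 (-0.08) or CCl4 replicate 2 (-0.04) and with each array centred on its median (-0.25).

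Among the S100 genes, S100a4 had 9.19, 8.95 and 8.72 in vehicle and 9.58, 9.48 and 9.64 in CCl4. The groups did not overlap, but the gene was called present in only 1 rat of each. It was called absent in vehicle replicates 4 and 5 and marginal in CCl4 replicates 1 and 2, so its detection there is uncertain. The signals themselves were above the medians of the arrays over all probe sets (6.79 to 7.81), many of which were not called present. Over those present on all 9 arrays the medians were 9.51 to 9.58, above every S100a4 signal in vehicle. The difference was 0.61 (interval 0.10 to 1.11), with a limma adjusted p of 0.342. S100a6, or calcyclin, a protein of proliferating cells and fibroblasts, had 10.01, 9.03 and 8.94 in vehicle and 9.74, 10.74 and 10.16 in CCl4. Vehicle replicate 3 lay above CCl4 replicate 1. The difference was 0.89 (interval 0.06 to 1.72), with a limma adjusted p of 0.379, and it was 1.23 without vehicle replicate 3.

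The calprotectin genes depended most on a single rat. S100a8 had 8.32, 5.38 and 5.44 in vehicle, where it was called present in replicate 3 alone, and 7.07, 8.18 and 7.69 in CCl4, where it was present in all 3 rats. S100a9 had 9.62, 7.22 and 7.24 in vehicle and 8.61, 9.36 and 8.77 in CCl4. Vehicle replicate 3 was thus above all CCl4 rats for both genes, while the other vehicle rats were below all of them. The differences were 1.27 for S100a8 (interval -0.54 to 3.07) and 0.89 for S100a9 (interval -0.60 to 2.38), with limma adjusted p of 0.533 and 0.590. Without vehicle replicate 3 they were 2.24 and 1.68, with limma adjusted p of 0.239 and 0.260. The S100a8 difference rests in part on vehicle signals that were not detected, and its vehicle side wholly so without vehicle replicate 3.

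With limma, 0 of the 10 members passed the adjusted threshold in CCl4 against vehicle, as did 0.0% of all probe sets, although 3837 of these had an unadjusted p below 0.05. An unadjusted p below 0.05 with a higher mean was found in 7 of 10 members (all but Anxa3, S100a8 and S100a9), compared with 8.64% of all probe sets. Each CCl4 rat lay above each vehicle rat in 5 of 10 members (Anxa2, Anxa5, Anxa7, S100a4 and S100a10), compared with 11.1% of all probe sets and 11.2% of those present on all 9 arrays. In limma with an intensity trend and robust variance estimation, called the robust fit here, 3 members were called in this comparison, namely Anxa2 (adjusted p 0.0129), Anxa7 (0.0129) and S100a10 (0.00872). That fit called 0.693% of all probe sets as higher (215), of 348 called in either direction. The number of members at an unadjusted p below 0.05 was 9 without vehicle replicate 3, and 4 without vehicle replicate 4 or 5. With arrays centred on their median it was 2 (Anxa2 and S100a10), and the median difference of the members was then 0.55 beside -0.18 over all probe sets.

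**Figure D2:**
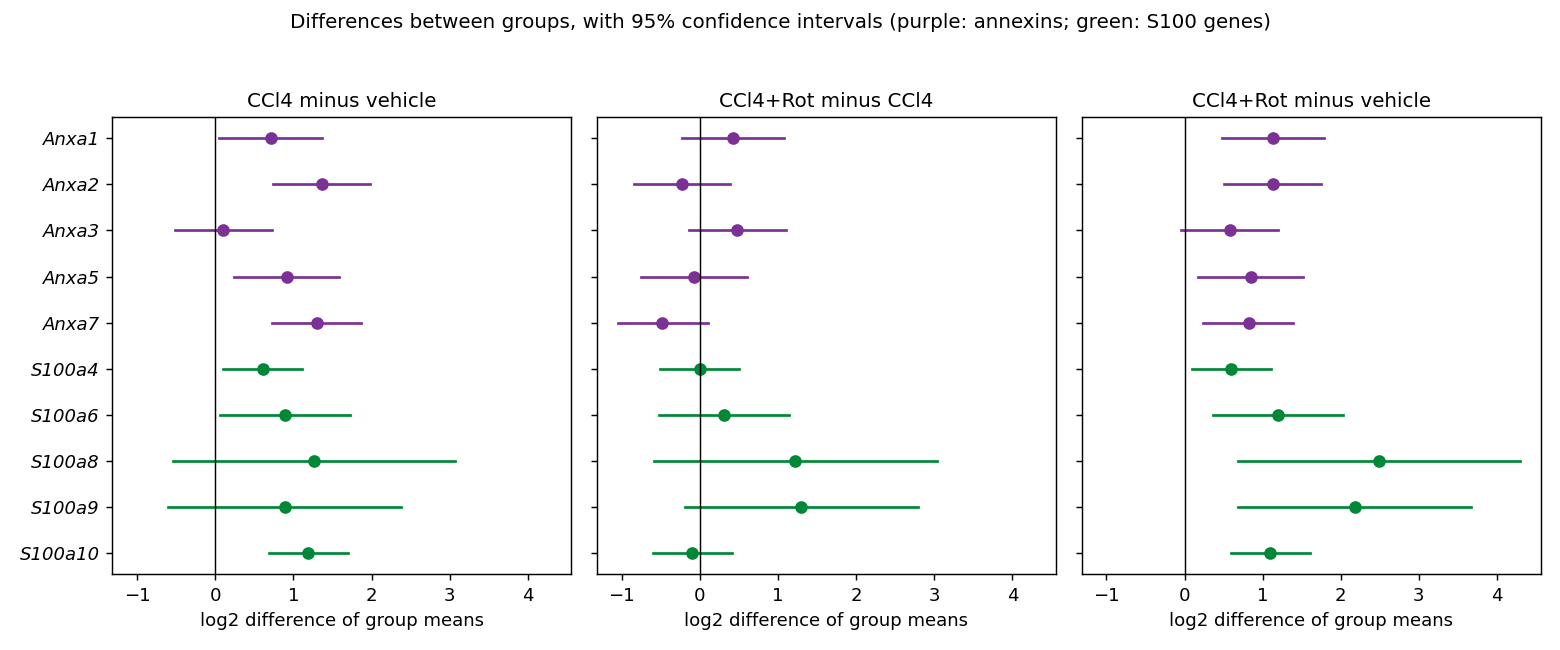
Difference of group means (log2, horizontal axis) with 95% confidence intervals from limma for the 10 genes in the 3 comparisons. Intervals for CCl4 minus vehicle lie above 0 in 7 genes, all intervals for CCl4+Rot minus CCl4 include 0, and the comparisons share groups and are not independent of each other.

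The annexin and S100 genes had no common direction between CCl4+Rot and CCl4. The calprotectin genes had higher means in CCl4+Rot than in CCl4, by 2.33-fold for S100a8 and 2.46-fold for S100a9. Anxa1 and Anxa3 were higher by 1.34-fold and 1.39-fold, and Anxa7 was the member with the largest difference downward (0.718 of its CCl4 signal). In all, 5 members were higher and 5 lower, with a median difference of 0.15. Over all probe sets tested the median was -0.12, and over those present on all 9 arrays 0.02.

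S100a9 had 9.76, 10.48 and 10.40 in the CCl4+Rot rats. All of them lay above the CCl4 rats, whose highest value was 9.36, and above all vehicle rats. The difference from CCl4 was 1.30 (SE 0.640, interval -0.19 to 2.79), with a limma adjusted p of 0.758. S100a8 had 8.43, 9.29 and 8.89 in CCl4+Rot, again above every CCl4 rat. The difference was 1.22 (SE 0.776, interval -0.59 to 3.03), with a limma adjusted p of 0.765. The width of these intervals includes the spread of the vehicle group, since the fit shares 1 estimate of the spread over all groups. With the CCl4 and CCl4+Rot groups alone, or with vehicle replicate 3 left out, both genes had an unadjusted p below 0.05, and the adjusted p without that rat was 0.726 for S100a9 and 0.783 for S100a8. The differences were between 1.15 and 1.53 for S100a9 and between 0.93 and 1.48 for S100a8 with any array left out.

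Anxa1 had 10.79, 10.70 and 11.10 in CCl4+Rot, which reached just to the highest CCl4 rat (10.70 for CCl4 replicate 1) without overlap before rounding. The difference was 0.42 (interval -0.23 to 1.08), with a limma adjusted p of 0.774, and it was 0.24 without CCl4 replicate 3. Anxa3 had 11.44, 11.47 and 11.74, above all CCl4 rats by a narrow margin. The difference was 0.48 (interval -0.14 to 1.10), with a limma adjusted p of 0.765. The other Anxa3 probe sets differed by 0.27 and 0.01, or by 0.50 and 0.09 without CCl4 replicate 3.

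Anxa7 had 9.46, 9.26 and 9.99 in CCl4+Rot. These lay between the vehicle and the CCl4 ranges, except that CCl4+Rot replicate 6 was above CCl4 replicates 2 and 3. The difference from CCl4 was -0.48 (interval -1.05 to 0.10), with a limma adjusted p of 0.764. Anxa2 had 10.09, 9.96 and 10.64 in CCl4+Rot, within or near the CCl4 range, a difference of -0.23 (interval -0.85 to 0.39), or -0.13 without CCl4 replicate 3. Its partner S100a10 had 10.81, 10.58 and 10.71, all within the CCl4 range, a difference of -0.10 (interval -0.60 to 0.41). Anxa5 had 10.79, 10.52 and 10.98, also within the CCl4 range, a difference of -0.07 (interval -0.75 to 0.60). S100a6 had 10.39, 10.48 and 10.69, a difference of 0.31 (interval -0.52 to 1.14). S100a4, called present in all CCl4+Rot rats, had 9.93, 9.30 and 9.46 around the CCl4 values, a difference of 0.00 (interval -0.51 to 0.50), or 0.03 without CCl4 replicate 3. The intervals of these 5 genes each reach past 0.50 in size in at least 1 direction. Centring each array on its median turned the sign for Anxa2 (0.02), Anxa5 (0.18), S100a10 (0.15) and S100a4 (0.24).

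In CCl4+Rot against CCl4, limma called 0 of the 10 members and 0.00322% of all probe sets (1 of 31042). No member had an unadjusted p below 0.05 and a higher mean, compared with 1.97% of all probe sets. In either direction, 2057 of all probe sets were below 0.05. Each CCl4+Rot rat lay above each CCl4 rat in 4 of 10 members (Anxa1, Anxa3, S100a8 and S100a9). For all probe sets this was 4.73%, and for those present on all 9 arrays 8.0%. The robust fit called 0 members here.

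Between CCl4+Rot and vehicle, the members had a median difference of 1.11, and all 10 were positive. S100a8 differed by 2.49 (5.60-fold, interval 0.68 to 4.29) and S100a9 by 2.18 (4.55-fold, interval 0.69 to 3.67), and without vehicle replicate 3 by 3.46 and 2.98. Their limma adjusted p were 0.413 and 0.383 with all arrays, and 0.0997 and 0.0911 without that rat. S100a8 was called absent in vehicle replicates 4 and 5, so its value without replicate 3 rests on undetected vehicle signals alone. S100a6 differed by 1.20, Anxa1 and Anxa2 each by 1.13, S100a10 by 1.10, and Anxa5, Anxa7, S100a4 and Anxa3 by 0.85, 0.82, 0.60 and 0.58. The other Anxa3 probe sets differed by 0.38 and 0.04, or by 0.69 and 0.34 without vehicle replicate 3. Vehicle and CCl4+Rot did not overlap in 9 of 10 members, Anxa3 being the exception, compared with 11.9% of all probe sets. An unadjusted p below 0.05 with a higher mean was found in the same 9 members, compared with 5.63% of all probe sets. Limma called 0 members at the adjusted threshold, compared with 0.0258% of all probe sets (8). The robust fit called Anxa1 (adjusted p 0.0361), Anxa2 (0.0294) and S100a10 (0.0128), and 0.689% of all probe sets as higher. CCl4+Rot and CCl4 were compared with the same vehicle rats, so these values and those of CCl4 against vehicle share their controls.

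**Figure D3:**
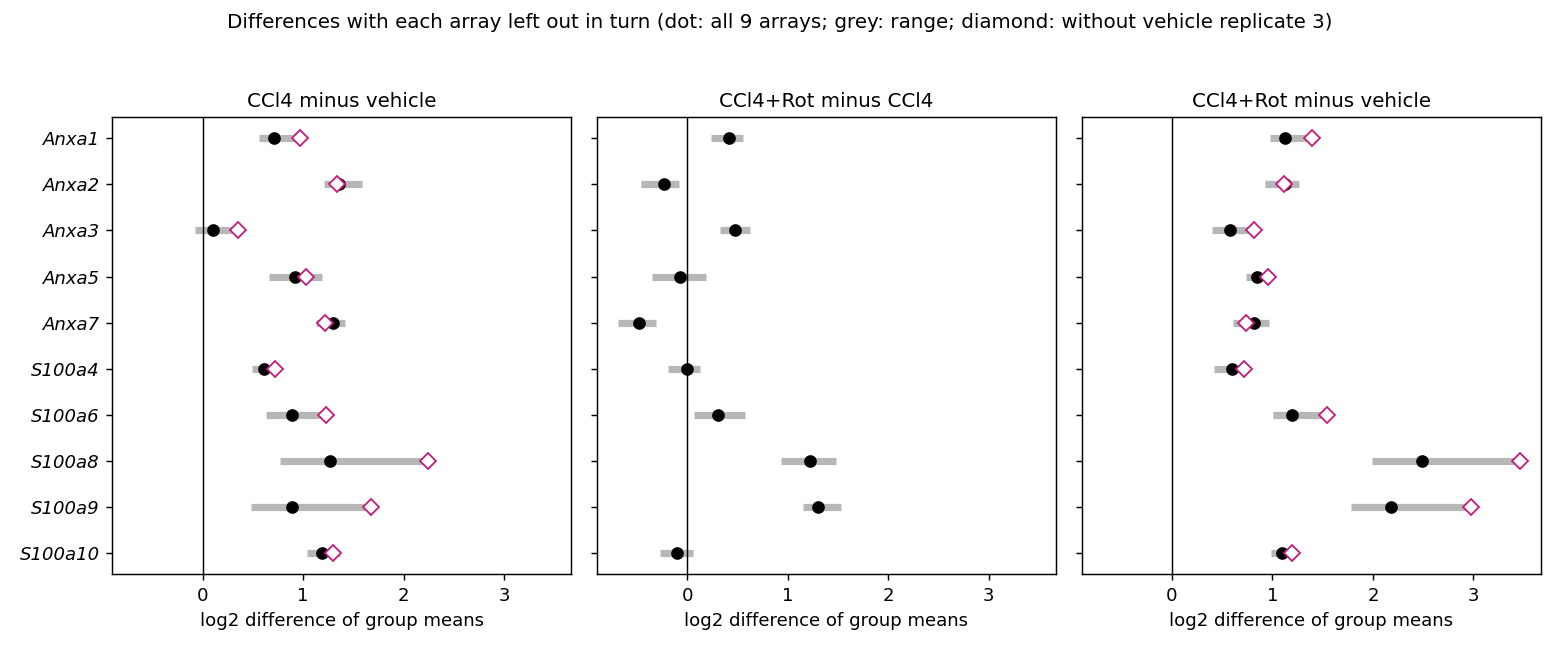
Difference of group means (log2, horizontal axis) for the 10 genes with all 9 arrays (dots), the lowest to the highest value with each array left out in turn (grey bars) and the value without vehicle replicate 3 (diamonds). The bars of S100a8 and S100a9 reach from 0.77 to 2.24 and from 0.48 to 1.68 in CCl4 minus vehicle, with the upper end set by leaving out vehicle replicate 3, and those of Anxa2, Anxa7 and S100a10 stay above 1.00.

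Markers of other cells were read on the same arrays, since each of these genes is made by more than hepatocytes. In bulk liver, more cells of a type and more RNA per cell cannot be told apart. Of 12 neutrophil markers, 9 were measured. Their summed signal was 1135 to 1958 in vehicle, 1592 to 5725 in CCl4 and 2163 to 6297 in CCl4+Rot. Such a sum follows its brightest genes, here mostly Lcn2 and Fcgr3a, the 2 markers present on all 9 arrays. Gene by gene, 6 were higher and 3 lower in CCl4 than in vehicle, with a median difference of 0.45. Between CCl4+Rot and CCl4, 5 were higher and 4 lower, with a median of 0.39. The granule genes Mpo and Elane could not be matched, and Cxcr2, Camp and Itgam were called present on no array. Lcn2, which injured hepatocytes also make, was present on all arrays and its values did not follow those of S100a8 and S100a9. It was 8.67, 8.75 and 9.19 in vehicle, so vehicle replicate 3 was the lowest for it. In CCl4+Rot it was 10.31, 9.46 and 12.27, with a difference from CCl4 of -0.52, or -0.28 without CCl4 replicate 3. Of the 9 measured markers, 3 were higher in CCl4 at an unadjusted p below 0.05 (Lcn2, Mmp8 and Mmp9), compared with 8.64% of all probe sets. Mmp8 and Mmp9 were each present in 0 vehicle rats and 1 CCl4 rat. In CCl4+Rot against CCl4, 1 marker was higher at that threshold, compared with 1.97% of all probe sets. This was Itgam, one of those with no present call. For macrophages 8 of 10 markers were measured, all present on all 9 arrays. Their sums were 20462 to 25842, 24405 to 31748 and 31695 to 35155 in vehicle, CCl4 and CCl4+Rot. Gene by gene, 5 of the 8 were higher and 3 lower in CCl4 than in vehicle, with a median difference of 0.15. The largest difference was that of Lyz2, a bright gene (1.22). Between CCl4+Rot and CCl4, 7 were higher and 1 lower, with a median of 0.17. For hepatic stellate cells and their matrix all 10 were measured, with sums of 8888 to 14574, 20206 to 35824 and 30875 to 38576. Vehicle and CCl4 sums were thus separate for the stellate list, though this sum mostly follows its brightest gene, Col3a1 (mean 12.67 and 13.84). All 10 genes had a higher mean in CCl4, with a median difference of 0.89. At an unadjusted p below 0.05, 6 of 10 were higher, compared with 8.64% of all probe sets. Acta2, Tagln, Lrat and Dcn were not among these 6, and their groups overlapped. Between CCl4+Rot and CCl4, 7 stellate genes were higher and 3 lower, with a median of 0.36. Among the vehicle rats, replicate 3 was the highest for 6 of 8 macrophage markers and the lowest for none. It was the highest for 5 of 10 stellate markers (the collagens Col1a1, Col1a2 and Col3a1, with Lum and Dcn) and the lowest for 3 (Acta2, Tagln and Des). For neutrophil markers it was the highest for 5 of 9 and the lowest for 4, and it was the lowest for all 7 hepatocyte markers. Of 7 measured cholangiocyte markers 4 were present on no array, and the sums were 996 to 1105, 1197 to 1884 and 1128 to 1285. For 5 measured endothelial markers they were 8866 to 10015, 6726 to 9455 and 9189 to 10072. The 7 hepatocyte markers summed to 215428 to 247500, 164121 to 240684 and 227773 to 241971. The part of these cell types in the differences of the annexin and S100 genes was not tested.

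Other genes of both families were mostly near or above their vehicle level with CCl4. The comparison list held 19 genes, of which 16 were measured and 10 were present on at least 1 array. In CCl4 against vehicle the median difference was 0.49, beside 0.18 over all probe sets. At an unadjusted p below 0.05, 1 of 16 genes was higher and 0 lower, while 8.64% of all probe sets were higher. That gene was S100a11, a partner of Anxa1 and neighbour of S100a10 on chromosome 2, with a mean of 9.88 ± 0.109 (SD, n = 3) in vehicle, 10.63, 11.11 and 10.37 in CCl4 and 10.86, 10.63 and 10.93 in CCl4+Rot. Both treated groups lay above vehicle, by 0.83 (interval 0.31 to 1.34) and 0.93, and the robust fit called S100a11 in both (adjusted p 0.0443 and 0.0294). Anxa4 and Anxa6, membrane-binding annexins of epithelia and endosomes, were higher in CCl4 by 0.50 and 0.48 without overlap, and S100a16 by 0.41 with overlap. A second Anxa4 probe set, also present on all 9 arrays, gave 0.43 with overlap. Without CCl4 replicate 3, Anxa6 differed by 0.32. S100b, a protein of glia, was near the limit of detection (present on 5 arrays) and differed by -0.57 between CCl4+Rot and CCl4. Its CCl4 signals were 5.00, 5.58 and 7.67, and without the last, CCl4 replicate 3, the S100b difference was 0.22. In that comparison 0 of 16 had an unadjusted p below 0.05 and 3 were positive, with a median of -0.21 beside -0.12 over all probe sets. Of the 16, 6 were present on no array. The mean log2 signal of the list was 6.89, 7.40 and 8.05 in CCl4 replicates 1, 2 and 3, and several signs turned without replicate 3. S100pbp, which is a binding protein of an S100 and no S100 itself, was higher by 0.29 at its brightest probe set, without overlap, and differed by -0.05 with overlap at a second. That second S100pbp value was 0.07 without CCl4 replicate 3. Anxa6 differed by -0.38, or -0.22 without CCl4 replicate 3.

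Binding partners and receptors were a list of 17 genes, of which 11 were measured. The formyl peptide receptors, through which Anxa1 acts, could not be matched, and Ager, a receptor of S100 proteins, was present on no array. In CCl4 against vehicle, 4 of 11 were higher at an unadjusted p below 0.05 and 0 lower, compared with 8.64% of all probe sets higher. The 4 were Sri, Ahnak, Pla2g4a and Plaur, of which Plaur was present on no array. Another Plaur probe set, also present on no array, was lower in CCl4 than in vehicle. Sri (sorcin), an EF-hand protein that binds Anxa7, had 10.19, 9.96 and 10.14 in vehicle, 10.96, 12.16 and 10.67 in CCl4 and 11.33, 11.13 and 11.43 in CCl4+Rot. It was higher by 1.17 with CCl4 (interval 0.32 to 2.02, limma unadjusted p 0.0135), and its second probe set by 1.39. Ahnak, a scaffold that binds Anxa2 with S100a10, had 9.71, 9.63 and 9.52 in vehicle, 10.11, 10.27 and 10.03 in CCl4 and 10.65, 10.33 and 10.72 in CCl4+Rot. The 3 groups were separate from each other, in steps of 0.52 and 0.43, and Ahnak was the single partner with an unadjusted p below 0.05 between CCl4+Rot and CCl4 (0.0381). Pla2g4a, the cytosolic phospholipase that Anxa1 and S100a10 are known to restrain, was 0.84 higher in CCl4 and 1.10 higher in CCl4+Rot than in vehicle. Plg, the plasminogen bound by Anxa2 with S100a10 and a product of hepatocytes, differed by -0.23 between CCl4 and vehicle and by 0.26 between CCl4+Rot and CCl4. Without CCl4 replicate 3, Plg differed by -0.08 and 0.11. None of these partners passed the adjusted threshold in limma.

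**Figure D4:**
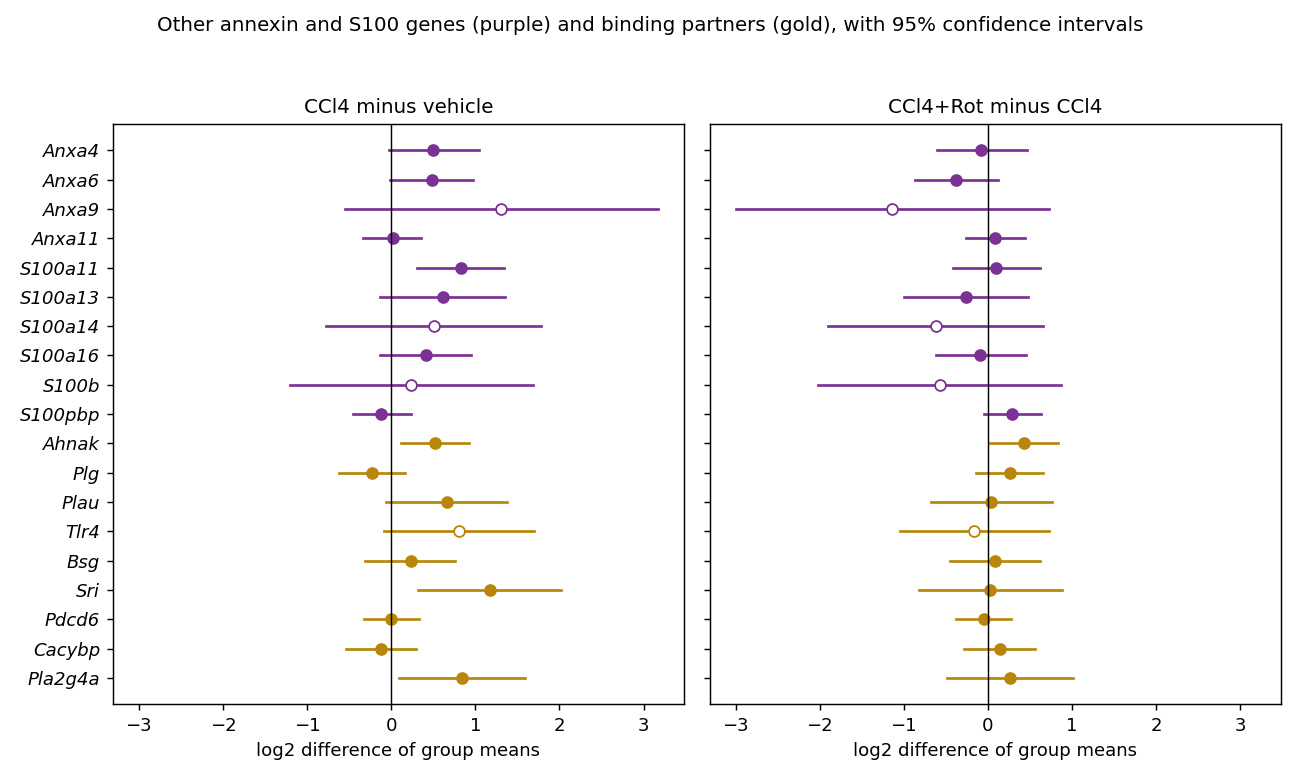
Difference of group means (log2, horizontal axis) with 95% confidence intervals for 10 other annexin and S100 genes and 9 binding partners that were called present on at least 1 array. Open points were not present on all 9 arrays. The intervals of S100a11, Ahnak, Sri and Pla2g4a lie above 0 in CCl4 minus vehicle, and that of Ahnak alone lies above 0 in CCl4+Rot minus CCl4.

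Genes with the pattern most like the members were sought for Anxa2 and Anxa7, the members with the largest CCl4 difference among those present on all 9 arrays. Likeness was the root mean square difference of the log2 signals over the 9 arrays after each gene was centred, among 7057 genes. Nearest to Anxa2 were Pqlc3 (0.151), Tmem178a (0.162) and Tes (0.176). Tes, which codes for the focal adhesion protein testin, had 8.36, 8.12 and 8.25 in vehicle, 9.57, 9.99 and 9.95 in CCl4 and 9.40, 9.08 and 10.16 in CCl4+Rot. Like Anxa2 it was highest in CCl4+Rot replicate 6 and CCl4 replicate 2 within those groups. Nearest to Anxa7 were Acsl3, an acyl-CoA synthetase (0.178), Litaf (0.213) and Akr7a3, an aldo-keto reductase (0.223). Acsl3 had 8.79, 8.63 and 8.78 in vehicle, 10.08, 9.78 and 9.72 in CCl4 and 9.17, 9.20 and 9.50 in CCl4+Rot. As for Anxa7, CCl4 replicate 1 was the highest CCl4 rat and replicate 6 the highest CCl4+Rot rat. These likenesses rest on the same 9 arrays and are a description.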

How the data were processed

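Livers of 9 rats (3 vehicle, 3 CCl4, 3 CCl4+Rot) were measured on Affymetrix rat expression arrays. For 31099 probe sets per array, the authors deposited log2 signals together with calls of presence, marginal presence or absence, and the submitters' processing notes name MAS5 and affy, with no version. The antilogs of the deposited log2 signals gave 500 as the 2% trimmed mean of each array, a scaling made before deposit. The genome build behind the coordinates of the table is not given in the sources used here. The labels number the rats but say nothing of their housing or batches, so p-values measure the spread between these samples only. The 3 arrays per group limit the precision.

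After 57 control probe sets were left out, 31042 were fitted with limma 3.58.1 (R 4.3.3, statmod 1.5.0), with 3 group means over all 9 arrays and no further normalization. A call needed a Benjamini-Hochberg adjusted p below 0.05 over all probe sets and at least 1.5-fold, the fold of the methods. An exact permutation test of 3 against 3 cannot go below 0.1. The fits were also run on simulated data with independent noise of equal spread in all groups. Deviations shared over a whole array were not simulated.

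The members and lists were chosen with earlier results of these data known. Named besides the members are genes of the other lists that were called, or that had the 3 smallest p in a comparison among those present on all arrays of a compared group, and the 3 nearest genes by pattern for 2 members. Plaur, Ager and marker genes were named after their values were seen. Alternatives were quantile normalization, centring on the median, leaving out the lowest 30% of mean signals and fitting only the groups compared. Further ones were a robust spread, Student's t-test, the animal number as a block and each array left out. The methods list Student's t-test among their statistics but name no test for the arrays. Added after seeing the data were a filter on presence on at least 3 arrays, and leaving out vehicle replicate 3 and CCl4 replicate 3 together. Promoters came from the RefSeq table of GRCr8, with the 250 bases before each start searched.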

Additional observations from a re-analysis of the deposited data

How the results depend on the processing

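Of 192 values per comparison for the 10 members over the alternatives, 3 turned their sign in CCl4 against vehicle (Anxa3 alone), 12 in CCl4+Rot against CCl4 (Anxa2, Anxa5, S100a4 and S100a10) and 0 in CCl4+Rot against vehicle. Those of CCl4 against vehicle were Anxa3 at -0.25 with arrays centred on the median, -0.04 without CCl4 replicate 2 and -0.08 without vehicle replicate 4, in a range of -0.08 to 0.35 (without vehicle replicate 3) with a single array left out. In CCl4+Rot against CCl4, centring gave Anxa2 0.02, Anxa5 0.18, S100a10 0.15 and S100a4 0.24. Without CCl4 replicate 2, Anxa5 was 0.19 and S100a10 0.06, and without CCl4+Rot replicate 5, Anxa5 was 0.05. With a single array left out, Anxa5 ranged from -0.35 to 0.19 and S100a10 from -0.27 to 0.06. S100a4 was 0.03 with both animals 3 left out and, with a single array left out, between -0.19 and 0.13. Centring moved the median of all probe sets from 0.18 to -0.18 in CCl4 against vehicle, and the members' median to 0.55.

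For CCl4 against vehicle, the count of members called was 1 (S100a10) among probe sets present on at least 3 arrays. It was 3 with the robust spread and 5 with Student's t-test without adjustment. For CCl4+Rot against CCl4 the last was 2. For CCl4+Rot against vehicle the counts were 3 with the robust spread and 6 with that t-test. Over all probe sets, 0 were called for CCl4 against vehicle in limma. The count was 4 without the lowest 30%, 78 with presence on at least 3 arrays, 348 with the robust spread and 1774 with the t-test without adjustment. For CCl4+Rot against CCl4 it was 1. It became 0 with both animals 3 left out, without the lowest 30%, with only the groups compared, with the presence filter, with quantile normalization and with the adjusted t-test, 851 with the t-test without adjustment, and 0 to 2 with an array left out (2 without CCl4 replicate 2). For CCl4+Rot against vehicle it was 8. It became 2 with centring, 0 with both animals 3 left out, 22 without the lowest 30%, 1 with only the groups compared, 63 with the presence filter, 3 with quantile normalization, 0 with the adjusted t-test, 2126 with the t-test without adjustment, 241 with the robust spread and 0 to 24 with an array left out (24 without CCl4 replicate 2). The causes of these changes were not tested.

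The labels do not say whether the animal numbers that vehicle shares with the other groups pair the samples. Same-numbered arrays deviated together with correlations of 0.0200, 0.0355 and 0.0680. Each value comes from a single pair of arrays, so these cannot exclude a pairing. CCl4 and CCl4+Rot share no number, and a pairing between them was not examined. With the number as a block the consensus correlation was -0.0327, and 7, 0 and 9 members had an unadjusted p below 0.05 in the 3 comparisons, the counts found without the block. The block changed no other call of a member.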
